A study of Homo sapiens with 6 samples.

Results

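The 44 numbered pseudogenes of nuclear genes in the deposited table are the rows whose name ends in a digit, the letter P and a number, as in VDAC2P3, without those named as copies of mitochondrial genes (MTND, MTCO, MTATP, MTCYB). They were taken from 1877 listed genes. The 2 groups were LP-1 cells, an established human multiple myeloma line, depleted of RNF5 with a short hairpin RNA (n = 3 libraries), and the same line with a non-target control (n = 3). The authors listed a gene only if they had called it changed in these same libraries, with an adjusted p of at most 0.0499 in their table. None of the 44 had an absolute log2 fold change below 1.01 there. The counts below are therefore a description of selected genes. The labels do not state whether libraries of the same group came from separate cultures, so the p-values measure the spread between these 6 libraries, which may be technical. RNF5, which encodes a membrane-anchored ubiquitin ligase, was at 1594.70, 1649.43 and 1248.30 in the controls and at 95.40, 81.35 and 88.44 in the knockdown, lower in every knockdown library. Of 10 plasma cell markers only SDC1 was listed, and it was higher in the knockdown (12.1 to 35.5 in the mean), so the cell identity could not be checked further.

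A pseudogene is a copy of a gene that has lost the ability to make the parent's protein. A processed pseudogene arose when the spliced mRNA of its parent was copied into DNA by the reverse transcriptase of LINE-1 elements and inserted elsewhere, so that it has no introns and no promoter of its own and is often read only as part of a gene it landed in. An unprocessed pseudogene arose by duplication of genomic DNA and keeps introns. Copies of highly expressed housekeeping genes are frequent among the processed ones. Short reads from a recent copy can match the parent as well, and how the authors placed such reads is not stated.

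Not all 44 are processed. GENCODE 29 held 36 of them by identifier and classed 25 as processed pseudogenes and 11 as unprocessed. The other 8 (ADCY10P1, DPY19L2P2, HERC2P7, HTR7P1, INTS4P1, LSP1P5, PLEKHA8P1 and ROCK1P1) have identifiers that the release does not contain. For 33 of the 36, the best match among protein-coding transcripts was the gene after which the pseudogene is named. The exceptions were SLC2A3P1 (best match PANK3), TCAF2P1 (TCAF2C) and ZNRF2P1 (SMAD2). Identity to the named parent ranged from 71.5% in RPL13P8 to 100% in H3P6, with a median of 87.8%. It refers to the best local alignment alone, which covered as little as 2.1% of the transcript in DNM1P47 and 12.7% in CSPG4P12. The lengths of the longest transcripts ran from 321 bases (HMGA1P8) to 15043 bases (DNM1P47).

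Most of the pseudogenes were higher in the knockdown. In 31 of 44 every knockdown library lay above every control library, against 47.7% of all listed genes, and in 9 every knockdown library lay below, against 45.5%. Either way, 93.2% of all listed genes had groups that did not overlap. The groups of the other 4, ADCY10P1, ANAPC1P2, CSPG4P10 and HMGB1P35, overlapped. The authors' deposited table gives 32 as higher, a direction that 49.2% of all listed genes share, and 12 as lower, against 50.8%. The median of the authors' log2 fold changes was 1.20 for the 44 and -1.01 for all listed genes. With genes selected in both directions, such a median mostly follows the shares above. The value of -1.01 does not describe a typical fall, since 49.2% of all listed genes were higher. Expression was measured in bulk RNA, where fewer cells with a transcript and less of it per cell cannot be told apart.

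Other non-coding classes of the table leaned the same way, while protein-coding genes did not. The authors listed 78.8% of the 52 other pseudogenes as higher, 73.0% of 126 lincRNAs and 66.0% of 144 antisense RNAs, but 40.7% of 1268 protein-coding genes. The 52 include the 7 numbered copies of mitochondrial genes that were left out of the 44, all of them listed as higher. The direction of the 44 is therefore close to that of other non-coding transcripts here, and no test of these shares was run.

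Values were compared with limma on log2(value + 1), a scale that understates the change of low values, and genes had to reach 1 in no fewer than 3 libraries. This left 35 of the 44 pseudogenes testable. Of these, 30 were called higher (55.7% of all 1290 tested genes were) and 4 lower (42.0%) at an adjusted p under 0.05, with 97.7% of all tested genes called in either direction, and ADCY10P1 did not pass. A pseudogene that met the minimum only through the group in which it was high had to differ, so these counts add nothing to the authors' selection. Of the 9 too low to test, 7 were listed as lower and 2 as higher. The median log2 fold change was 1.06 over the 35 and 0.73 over all 1290. Without the minimum value, it was 0.984 over the 44 and -0.0972 over all 1877 listed genes. These medians too mostly follow the share of each direction. With knockdown values lowered by the median offset of 0.173 between the ratio of library means and the authors' log2 value, 28 were called higher and 5 lower.

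**Figure D1:**
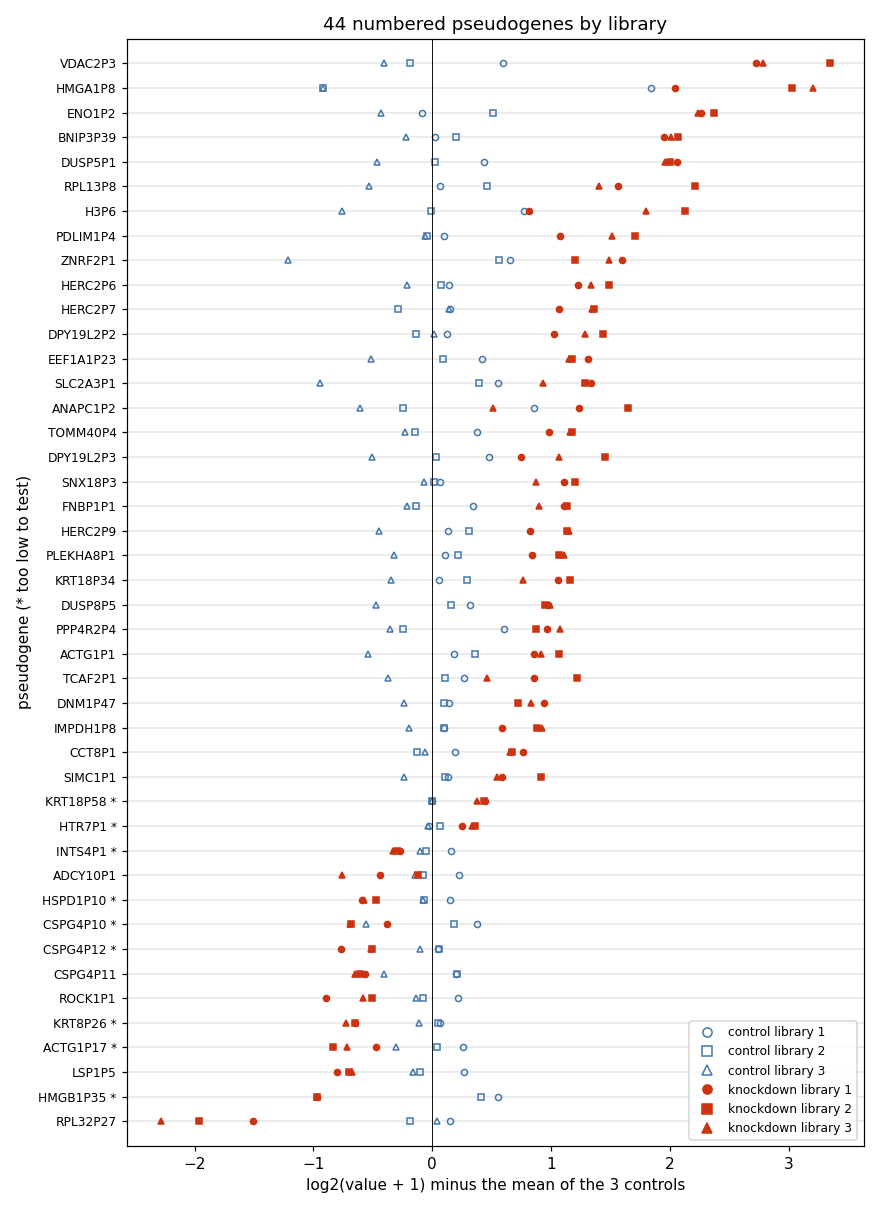
Each row is 1 of the 44 pseudogenes, ordered by the difference between groups, and each point is 1 library, as log2(value + 1) minus the mean of the 3 controls (controls open, knockdown filled, * too low to test). In 31 rows the filled points lie to the right of all open points and in 9 to the left, and the open triangle of control library 3 is the lowest control in 38 rows.

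Control library 3 had the lowest control value in 38 of the 44 pseudogenes, and in 1170 of all 1877 listed genes. The values of the 44 summed to 432.4, 297.0 and 204.6 in control libraries 1, 2 and 3 and to 599.1, 1032 and 864.4 in knockdown libraries 1, 2 and 3. H3P6 alone made much of these sums. Without it they were 195.8, 160.6 and 123.8 in the controls and 355.5, 425.6 and 382.4 in the knockdown, so the groups stayed apart. Without control library 3, 29 were called higher and 4 lower, and 31 lay above and 12 below all remaining controls. ANAPC1P2 then lost its call (limma adjusted p = 0.0827), ADCY10P1 gained one (lower, limma adjusted p = 0.0476), CSPG4P11 fell under the minimum and was not tested (as happened without either other control library), and the log2 fold change of ZNRF2P1 went from 1.43 to 0.82. What sets this library apart was not tested.

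The 4 copies that parent symbols placed in the mitochondrial and metabolic groups, VDAC2P3, TOMM40P4, ENO1P2 and IMPDH1P8, were called higher. So were 85.7% of all tested pseudogenes. HSPD1P10, from the gene of a mitochondrial chaperonin, was placed with the chaperones by its symbol and was lower in the knockdown, though too low to test. VDAC2P3 is a copy of VDAC2, which encodes a pore of the outer mitochondrial membrane, and lies at chr1:117640812-117641639 (GRCh38, minus strand). Its values were 2.46, 1.02 and 0.73 in the controls and 14.18, 22.39 and 14.82 in the knockdown. The groups were far apart, with the lowest knockdown value several times the highest control. The control mean was 1.40 ± 0.927 and the knockdown mean 17.1 ± 4.57 (SD, n = 3), a 12.2-fold rise (limma adjusted p = 5.21e-06) with a log2 fold change of 2.95 and a standard error (SE) of 0.28. TOMM40P4, a copy of the gene for the channel of the outer membrane protein translocase, had a control mean of 2.56 ± 0.859 and a knockdown mean of 6.54 ± 0.534 and rose as well (limma adjusted p = 0.000481).

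ENO1P2 derives from ENO1, the gene of the glycolytic enzyme enolase 1. Control values were 0.37, 1.07 and 0.08, and knockdown values 5.95, 6.54 and 5.84. The knockdown libraries were nearly equal, and all controls were close to 1 or below. Its log2 fold change was 2.29 (SE 0.23, limma adjusted p = 7.87e-06), a 12.1-fold rise of the mean. BNIP3P39 lies on chromosome 19 and is a copy of the mitophagy receptor gene BNIP3, which the grouping by symbol left without a role. It was at 0.70, 0.92 and 0.43 in the controls and at 5.45, 6.03 and 5.73 in the knockdown. All controls lay below 1 and the knockdown libraries were close to each other, and the mean went up 8.40-fold (log2 fold change 2.01, SE 0.18, limma adjusted p = 4.16e-06). IMPDH1P8, from the gene of an enzyme of guanine nucleotide synthesis, rose less (log2 fold change 0.80, limma adjusted p = 0.000644).

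The stretches of VDAC2P3 and ENO1P2 that align to the parent's coding sequence without a gap are shown to make visible how far each copy has moved from its parent. These 90 bases of VDAC2P3 (chr1:117641227-117641316, minus strand) hold 11 differences, and those of ENO1P2 (chr15:92422473-92422562, plus strand) hold 26. Capitals mark the bases that differ between copy and parent, here and below, and all sequences are from GENCODE 29 transcripts (GRCh38).
VDAC2P3: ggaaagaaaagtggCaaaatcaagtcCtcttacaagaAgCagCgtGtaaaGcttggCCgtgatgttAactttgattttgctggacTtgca
VDAC2: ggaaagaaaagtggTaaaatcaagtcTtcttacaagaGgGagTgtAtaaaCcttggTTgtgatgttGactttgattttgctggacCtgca
ENO1P2: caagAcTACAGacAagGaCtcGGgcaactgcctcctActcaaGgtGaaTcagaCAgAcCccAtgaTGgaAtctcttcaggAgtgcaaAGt
ENO1: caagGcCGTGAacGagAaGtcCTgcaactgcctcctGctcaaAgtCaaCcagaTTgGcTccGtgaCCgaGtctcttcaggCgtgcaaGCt

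Of 3 copies of chromatin genes, H3P6 and HMGA1P8 rose and HMGB1P35 was too low to test. H3P6, named H3F3AP4 in GENCODE 29, is a copy of the gene for the replication-independent histone H3.3. It was at 236.6, 136.4 and 80.77 in the controls and at 243.59, 606.26 and 482 in the knockdown. Knockdown library 1 lay just above control library 1, so the groups are separate by a narrow margin. The mean was 151 ± 79.0 in the controls and 444 ± 184 in the knockdown, 2.94-fold higher, and the log2 fold change of 1.58 (SE 0.37) passed the test (limma adjusted p = 0.00162). All 411 bases of its transcript are identical to a transcript of the parent, H3F3A. Reads of the pair cannot be told apart by sequence, and the parent is not among the listed genes.

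HMGA1P8 derives from HMGA1, which encodes an AT-hook protein that bends DNA. It was listed at 5.78, 0 and 0 in the controls and at 6.80, 14.48 and 16.42 in the knockdown. Only a small gap separated control library 1 from knockdown library 1. The log2 fold change was 2.76 (SE 0.60, limma adjusted p = 0.00101), with the widest error of the pseudogenes named here, and without control library 1 it was 3.68. HMGB1P35, a copy of the gene for the chromatin protein HMGB1, was listed at 1.87, 1.60 and 0 in the controls and at 0 in all 3 knockdown libraries. Control library 3 was equal to the knockdown.

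The 90 bases of H3P6 (chr2:174720067-174720156, plus strand) show no difference from the parent, and those of HMGA1P8 (chr2:74418237-74418326, minus strand) show 1. They are the closest copies among the larger rises.
H3P6: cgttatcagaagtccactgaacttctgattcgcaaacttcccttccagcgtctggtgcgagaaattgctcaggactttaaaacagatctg
H3F3A: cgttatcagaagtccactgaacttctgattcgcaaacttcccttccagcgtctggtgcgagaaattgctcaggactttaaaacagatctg
HMGA1P8: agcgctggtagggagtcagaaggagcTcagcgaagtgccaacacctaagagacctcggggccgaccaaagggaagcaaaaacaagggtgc
HMGA1: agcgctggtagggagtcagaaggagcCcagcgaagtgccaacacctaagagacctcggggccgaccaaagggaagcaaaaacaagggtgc

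Copies of genes for the protein synthesis machinery went both ways. RPL13P8, from the gene of a protein of the large ribosomal subunit, was at 2.49, 3.59 and 1.31 in the controls and at 8.86, 14.41 and 7.83 in the knockdown. All knockdown values were more than the highest control, and the rise was 4.21-fold (log2 fold change 1.73, SE 0.28, limma adjusted p = 0.000182). RPL32P27, from the gene of another large-subunit protein, was at 7.0, 5.32 and 6.42 in the controls and at 1.53, 0.85 and 0.48 in the knockdown. This was the largest fall among the tested pseudogenes, 6.55-fold in the mean (log2 fold change -1.92, SE 0.22, limma adjusted p = 2.1e-05). EEF1A1P23, a copy of the gene for the elongation factor that brings aminoacyl-tRNA to the ribosome, rose 3.34-fold (log2 fold change 1.21, limma adjusted p = 0.000403).

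The remaining role groups were small. Of 5 copies of cytoskeletal genes, ACTG1P1 (gamma actin, log2 fold change 0.95) and KRT18P34 (keratin 18, 0.99) rose, while KRT18P58, KRT8P26 and ACTG1P17 were too low to test. KRT18P58 was listed at 0 in every control and at 0.36, 0.35 and 0.30 in the knockdown. KRT8P26, from keratin 8, was at 0.84, 0.81 and 0.62 in the controls and at 0.12, 0.12 and 0.06 in the knockdown, and ACTG1P17 also lay below all controls. Copies of genes for chaperonins split as well. CCT8P1, from a subunit of the cytosolic chaperonin, rose (log2 fold change 0.69, limma adjusted p = 0.000302). HSPD1P10, from the gene of the mitochondrial chaperonin HSP60, was at 0.74, 0.49 and 0.48 in the controls and at 0.04, 0.13 and 0.05 in the knockdown, below all controls but too low to test. PPP4R2P4, from a regulatory subunit of protein phosphatase 4, rose (log2 fold change 0.97, limma adjusted p = 0.00297).

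Copies that the grouping by symbol left without a role numbered 26. It missed some, such as DUSP5P1, whose parent encodes a phosphatase. Of the 26, 18 were called higher, 3 lower and 1 not called, and 4 were too low to test. The 18 are 81.8% of those tested, near the 85.7% of all tested pseudogenes. Of all tested genes, 55.7% were called higher and 42.0% lower. PDLIM1P4, from a gene of a cytoskeletal adaptor, was at 1.42, 1.19 and 1.17 in the controls and at 3.75, 6.39 and 5.45 in the knockdown, a 4.12-fold rise (log2 fold change 1.43, SE 0.20, limma adjusted p = 7.43e-05). ZNRF2P1 was at 13.49, 12.56 and 2.96 in the controls and at 26.80, 20.12 and 24.74 in the knockdown. The low control library 3 sets much of its spread, and its log2 fold change was 1.43 (SE 0.40, limma adjusted p = 0.00454). DPY19L2P2 and DPY19L2P3, copies of a gene needed for sperm head formation, rose 2.56-fold and 2.40-fold (log2 fold changes 1.25 and 1.09, limma adjusted p = 0.000111 and 0.00237). SNX18P3 had control values near 0.40 ± 0.0656 and rose 4.84-fold (log2 fold change 1.06, limma adjusted p = 4.07e-05).

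The same group holds further called rises. SIMC1P1 (0.68), DNM1P47 (0.83), TCAF2P1 (0.84), DUSP8P5 (0.97), PLEKHA8P1 (1.01) and FNBP1P1 (1.05) were all called higher, with knockdown values above all controls. ANAPC1P2 was at 3.79, 1.23 and 0.73 in the controls and at 5.23, 7.28 and 2.76 in the knockdown. Control library 1 lay above knockdown library 3, and the log2 fold change was 1.13 (SE 0.37, limma adjusted p = 0.0103). HTR7P1 and INTS4P1 were too low to test. HTR7P1, named for a serotonin receptor gene, was at 0.09, 0.16 and 0.08 in the controls and at 0.32, 0.42 and 0.40 in the knockdown. INTS4P1, named for a subunit of the Integrator complex, was at 0.79, 0.55 and 0.50 in the controls and at 0.33, 0.31 and 0.28 in the knockdown.

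Among those that fell were LSP1P5 and ROCK1P1. LSP1P5, named for the gene of an actin-binding protein of leukocytes, was at 6.52, 4.84 and 4.58 in the controls and at 2.59, 2.86 and 2.93 in the knockdown (log2 fold change -0.72, SE 0.20, limma adjusted p = 0.00377). ROCK1P1 was at 5.32, 4.13 and 3.93 in the controls and at 1.92, 2.83 and 2.62 in the knockdown (log2 fold change -0.66, SE 0.20, limma adjusted p = 0.00707). Both had knockdown values below all controls and fell by less than 2-fold in the mean, 1.90-fold and 1.82-fold. ADCY10P1 was at 3.13, 2.36 and 2.20 in the controls and at 1.61, 2.26 and 1.09 in the knockdown, with overlap in knockdown library 2 (log2 fold change -0.44, limma adjusted p = 0.0523).

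The 3 copies of HERC2 were all higher in the knockdown. HERC2 encodes a giant ubiquitin ligase, and copies of it arose by duplication of genomic segments on chromosome 15. GENCODE 29 classes HERC2P6 and HERC2P9 as unprocessed and does not contain the identifier of HERC2P7. HERC2P6 (chr15:23430839-23435212, GRCh38, plus strand) was at 52.68, 50.42 and 41.12 in the controls and at 113.52, 136.17 and 122.6 in the knockdown. HERC2P7 was at 25.72, 18.71 and 25.62 in the controls and at 49.66, 60.82 and 60.09 in the knockdown. HERC2P9 was at 2.08, 2.48 and 1.05 in the controls and at 3.97, 5.14 and 5.21 in the knockdown. In all 3 the groups were separate, as in 31 of the 44 pseudogenes, and the ratio of means was alike, 2.58, 2.43 and 2.55. Ratios of this size are not particular to the family. Pseudogenes of other parents had them too, such as TOMM40P4 (2.55), DPY19L2P2 (2.56) and ZNRF2P1 (2.47). Their log2 fold changes were 1.35 (SE 0.17), 1.26 (SE 0.19) and 1.04 (SE 0.23), with limma adjusted p = 3.05e-05, 9.59e-05 and 0.00104. HERC2 itself has no row.

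HERC2P6 and HERC2P9 had no 50-base window in common with each other, but 89.8% and 87.7% of their windows occur in transcripts of other genes. HERC2P7 could not be compared, so whether its row shares reads with the other copies is unknown. Of the windows of HERC2P9, 50.5% occur in HERC2 transcripts, and of those of HERC2P6, 14.7%. The 90 bases of HERC2P6 at chr15:23433302-23433391 hold 8 differences from HERC2.
HERC2P6: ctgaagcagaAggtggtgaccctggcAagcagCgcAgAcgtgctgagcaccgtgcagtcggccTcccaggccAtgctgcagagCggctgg
HERC2: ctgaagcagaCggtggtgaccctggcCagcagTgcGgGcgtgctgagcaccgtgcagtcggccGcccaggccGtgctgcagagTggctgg

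Only 4 pseudogenes had a parent with a row of its own, DUSP5P1 and the 3 copies of CSPG4, and in each the parent's mean differed in the opposite direction. DUSP5 encodes a nuclear phosphatase that inactivates the kinase ERK. Its processed copy DUSP5P1 (chr1:228650241-228651379, GRCh38, plus strand) was at 2.33, 1.51 and 0.79 in the controls and at 9.26, 8.87 and 8.60 in the knockdown. DUSP5 was at 7.26, 7.47 and 4.53 in the controls and at 2.86, 3.31 and 3.0 in the knockdown. The groups were separate for both genes, upward in the copy and downward in the parent. DUSP5P1 rose 5.77-fold (log2 fold change 2.01, SE 0.23, limma adjusted p = 2.19e-05), and DUSP5 fell 2.10-fold (log2 fold change -0.85, SE 0.22, limma adjusted p = 0.00261).

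The log2 ratio of DUSP5P1 to DUSP5, with 1 added to both values, was -1.31, -1.75 and -1.63 in the controls and 1.41, 1.20 and 1.26 in the knockdown. It differed by 2.85 between the groups, and by 3.70 with nothing added. The groups did not overlap on either scale. The exact 2-sided permutation test gave p = 0.1 on both, the smallest value that 3 against 3 libraries allow. Both genes were listed because the authors called them changed in these libraries, in opposite directions. Separation of the ratio was therefore nearly fixed in advance and adds nothing to that selection. No 50-base window of the DUSP5P1 transcript occurs in any GENCODE 29 transcript of another gene. The stretch at chr1:228651016-228651105 holds 11 differences from DUSP5.
DUSP5P1: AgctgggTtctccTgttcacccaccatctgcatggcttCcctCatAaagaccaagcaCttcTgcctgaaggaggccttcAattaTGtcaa
DUSP5: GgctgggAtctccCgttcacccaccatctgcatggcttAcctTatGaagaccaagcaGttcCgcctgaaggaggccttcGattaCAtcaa

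CSPG4 encodes a large surface proteoglycan known from melanoma and pericytes. Its unprocessed copies CSPG4P10, CSPG4P11 and CSPG4P12 lie on chromosome 15, from 82459472 to 85213905 (GRCh38), and were listed as lower by the authors. CSPG4P11 was at 2.29, 2.31 and 1.16 in the controls and at 0.93, 0.88 and 0.83 in the knockdown, and fell 2.18-fold (log2 fold change -0.61, SE 0.18, limma adjusted p = 0.00653). CSPG4P12 was at 1.15, 1.16 and 0.93 in the controls and at 0.22, 0.46 and 0.45 in the knockdown, below all controls but too low to test. CSPG4P10 was at 1.64, 1.31 and 0.38 in the controls and at 0.56, 0.27 and 0.26 in the knockdown, and here control library 3 lay among the knockdown values. Between 11.9% and 67.6% of the 50-base windows of one copy occur in another of the 3, so they are not independent measurements.

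CSPG4 was at 0.16, 0.13 and 0.06 in the controls and at 0.30, 0.35 and 0.28 in the knockdown. All its values are far below 1, and it was too low to test, but the knockdown libraries lay above the controls. At such values the amount added before taking logs sets the size of a ratio. With 1 added to both values, the log2 ratio of copy to parent differed between knockdown and control by -0.815 for CSPG4P10, by -0.839 for CSPG4P11 and by -0.829 for CSPG4P12. With nothing added, the differences were -2.98, -2.58 and -3.11. The groups did not overlap in any of the 3 ratios on either scale, and p was 0.1 in each exact 2-sided permutation test, again the smallest possible. Copies and parent had been listed in opposite directions from these libraries, so this too was nearly fixed in advance. At most 1.1% of the windows of a copy occur in CSPG4 transcripts. The window of CSPG4P10 at chr15:82463248-82463337 holds 12 differences from CSPG4.
CSPG4P10: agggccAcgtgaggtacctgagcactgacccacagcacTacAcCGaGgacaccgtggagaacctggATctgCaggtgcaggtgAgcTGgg
CSPG4: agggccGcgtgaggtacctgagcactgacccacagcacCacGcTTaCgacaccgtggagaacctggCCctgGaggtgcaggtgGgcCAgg

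**Figure D2:**
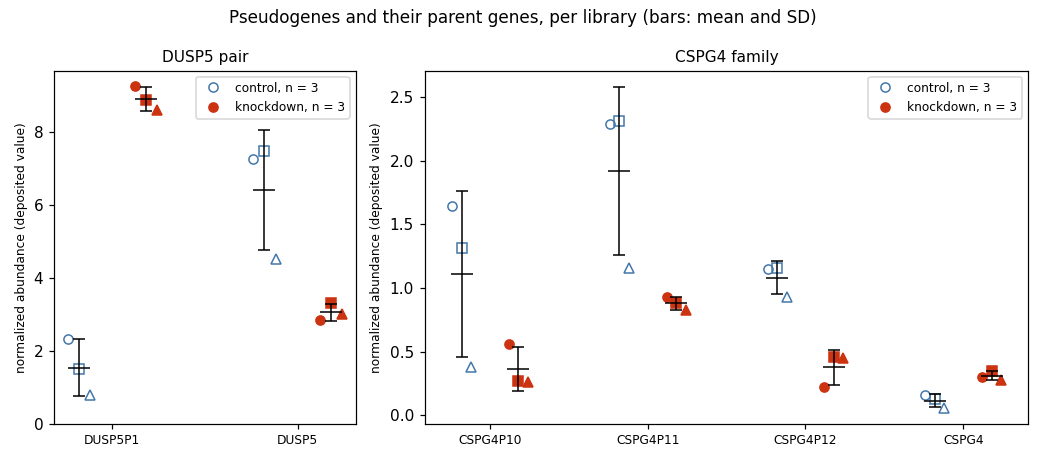
The vertical axis is the deposited normalized abundance and each point is 1 library (control open, knockdown filled, the bar is the mean with its SD, n = 3). DUSP5P1 lies above its controls where DUSP5 lies below, and the CSPG4 copies lie lower in the knockdown where CSPG4 lies higher, with overlap in CSPG4P10 alone.

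Large rises occurred in pseudogenes with and without sequence shared with other annotated genes. In 7 of the 36 matched pseudogenes no 50-base window occurs in a transcript of another gene, and 6 of these 7 were listed as higher, near the 28 of all 36. They are VDAC2P3, ENO1P2, BNIP3P39, DUSP5P1, RPL13P8 and FNBP1P1, and the exception is HSPD1P10. The first 5 are among the 12 largest rises on the log2 scale. Of the other 7, HMGA1P8, H3P6, PDLIM1P4, ZNRF2P1 and HERC2P6 shared windows with another gene, and HERC2P7 and DPY19L2P2 were not matched. At the far end, H3P6, SLC2A3P1, ANAPC1P2 and HMGB1P35 had every window in a transcript of another gene. With windows of 100 bases, 14 of the 36 shared none. Processed pseudogenes shared less than unprocessed ones, with medians of 7.8% and 74.0% of 50-base windows.

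Counted against the protein-coding transcripts of the parent alone, 16 pseudogenes shared no window, and the authors listed 10 of these as higher and 6 as lower. A further 16 shared less than 50% (14 higher and 2 lower), and 4 shared 50% or more, all listed as higher, namely H3P6, ANAPC1P2, TCAF2P1 and HERC2P9. Of all 36 matched pseudogenes, 28 were listed as higher, and of all listed genes 49.2%. The groups are small and were not tested for a trend. The search covers annotated transcripts and exact matches only, so it says nothing of reads from unannotated copies or with sequencing errors. How shared reads were counted was not tested.

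**Figure D3:**
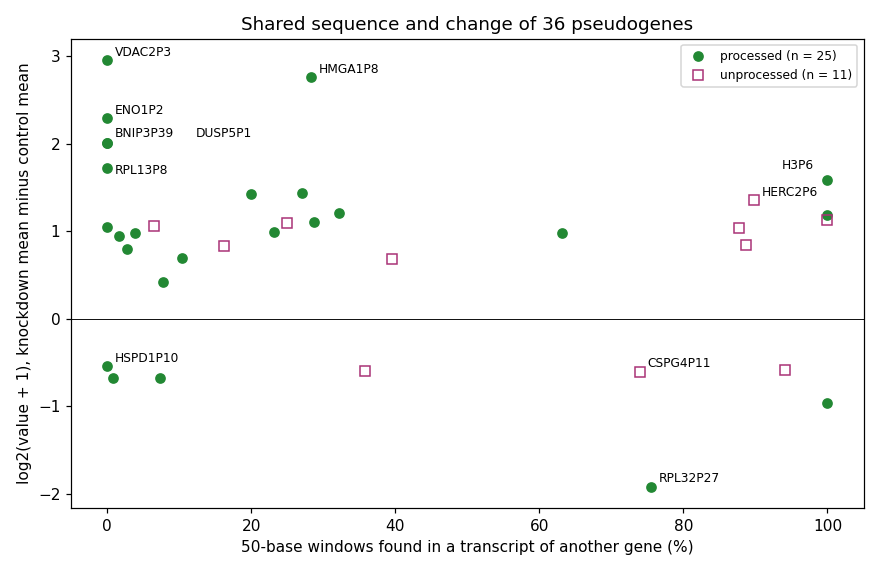
Each point is 1 of the 36 pseudogenes with a GENCODE 29 transcript (25 processed, 11 unprocessed), with the percentage of its 50-base windows found in another gene's transcript on the horizontal axis and the knockdown minus control mean of log2(value + 1) on the vertical axis. Points above 2 lie at 0% (VDAC2P3, ENO1P2, and BNIP3P39 with DUSP5P1 on the same spot) and at 28.3% (HMGA1P8), and the deepest point, RPL32P27, lies at 75.5%.

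The 3 pseudogenes that lie inside another listed gene were listed in the same direction as that gene. In GENCODE 29, 26 of the 36 overlap another gene, 15 of them on the same strand, and 9 overlap a protein-coding gene on the same strand. For 3 the overlapped gene is among those the authors listed, each time on the same strand, and each time both changed the same way. All of these genes were selected as changed, and 28 of the 36 matched pseudogenes were listed as higher. Whether the agreement of 3 pairs exceeds chance was not tested. Whether the counting used strand is not stated, and reads from overlapping stretches cannot be told apart. ENO1P2 lies at chr15:92420860-92422735, outside the exons of ST8SIA2, which encodes a polysialyltransferase. ST8SIA2 was at 20.94, 17.53 and 10.28 in the controls and at 52.89, 56.77 and 59.76 in the knockdown, and rose 3.48-fold (log2 fold change 1.79, SE 0.23, limma adjusted p = 4.15e-05). The log2 ratio of ENO1P2 to ST8SIA2 was higher in the knockdown by 0.50 with 1 added to both values and by 2.41 with nothing added. The low control values of ENO1P2 (0.37, 1.07 and 0.08) make the size of this difference depend on the amount added. The groups overlapped on neither scale (exact 2-sided permutation p = 0.1 for both, the smallest possible).

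HMGA1P8 lies at chr2:74418122-74418442, within C2orf81, and 31.8% of its bases are in exons of that gene. C2orf81 was at 3.94, 5.17 and 1.75 in the controls and at 14.66, 10.90 and 11.23 in the knockdown, a 3.39-fold rise (log2 fold change 1.59, SE 0.28, limma adjusted p = 0.000272). The log2 ratio of pseudogene to gene, with 1 added to both values, overlapped between the groups (difference 1.17, exact 2-sided permutation p = 0.3). RPL32P27, at chr12:48903418-48903813, has 78.5% of its bases in exons of a protein-coding gene named AC073610.3 in GENCODE 29. That gene was at 3.43, 1.59 and 1.67 in the controls and at 0.52, 0.59 and 0.21 in the knockdown, a 5.07-fold fall (log2 fold change -1.13, SE 0.21, limma adjusted p = 0.000345). The log2 ratio of RPL32P27 to it differed by -0.79 with 1 added to both values, without overlap (exact 2-sided permutation p = 0.1). With nothing added it differed by -0.48, the groups overlapped, and the exact p was 0.3. RPL32P27 shares 75.5% of its 50-base windows with transcripts of other genes but none with RPL32. The stretch at chr12:48903650-48903739 holds 6 differences from RPL32.
RPL32P27: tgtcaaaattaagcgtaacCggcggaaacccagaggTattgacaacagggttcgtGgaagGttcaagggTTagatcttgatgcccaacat
RPL32: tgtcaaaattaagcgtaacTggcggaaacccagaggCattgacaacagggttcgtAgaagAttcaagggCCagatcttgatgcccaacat

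**Figure D4:**
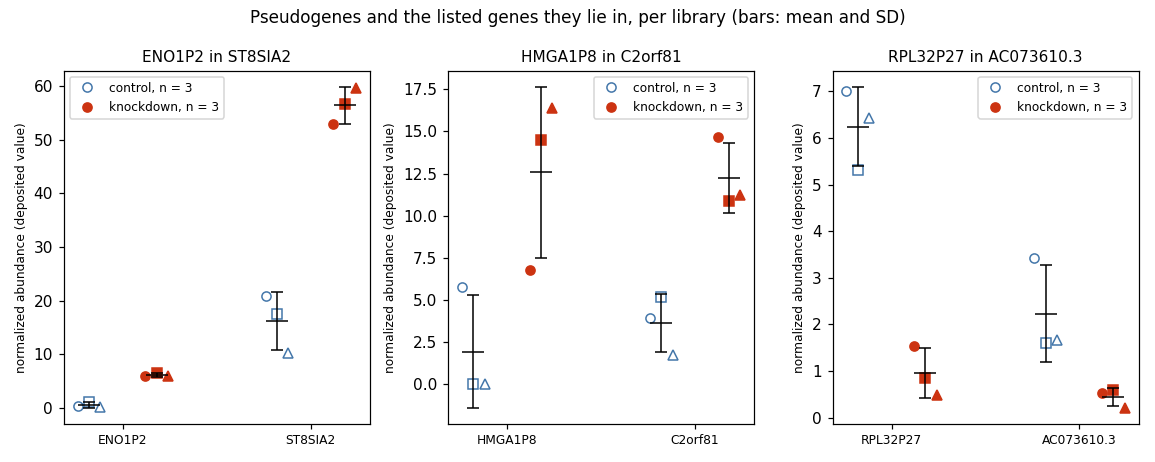
The vertical axis is the deposited normalized abundance, each point is 1 library and the bar is the mean with its SD (n = 3) for 3 pseudogenes and the listed genes they lie in. Both rise for ENO1P2 with ST8SIA2 and for HMGA1P8 with C2orf81, and both fall for RPL32P27 with AC073610.3.

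Some other pseudogenes lie wholly or partly in exons of genes that are not listed. SLC2A3P1, named for a glucose transporter gene, has 100% of its bases in exons of PANK3, a pantothenate kinase gene on the same strand. Over the 79.9% of its transcript that aligned to SLC2A3, SLC2A3P1 had 80.2% identity. It was at 8.14, 7.20 and 2.24 in the controls and at 14.73, 14.22 and 10.94 in the knockdown (log2 fold change 1.19, SE 0.34, limma adjusted p = 0.00486). Its reads cannot be told from those of PANK3 by sequence. HMGB1P35 has 100% of its bases in exons of the antisense RNA ZBED3-AS1. Others with same-strand exon overlap include ANAPC1P2 (99.9% of its bases, AC125232.2), PDLIM1P4 (35.2%, ST3GAL6) and EEF1A1P23 (29.2%, ATP13A4). Their values may therefore include reads of those genes, which was not tested. Within 20 kb and without overlap, 4 further listed genes were found. LINC00997 near ZNRF2P1 (11.7 to 40.7 in the mean) and OR56A4 near KRT18P58 (0.0733 to 0.313) were higher in the knockdown like the pseudogene. MYH15 near RPL13P8 fell (log2 fold change -1.39, limma adjusted p = 3.05e-05), opposite to it. RNA5S14 near DUSP5P1 was at 0 in every library, though the authors listed it as lower, with a log2 fold change of -4.12. That figure cannot be derived from the deposited values.

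Genes of RNA decay, of retroelement silencing and of LINE-1 restriction were almost absent from the table. None of 16 genes of nonsense-mediated decay, 19 of the RNA exosome and nuclear RNA surveillance and 16 that restrict LINE-1 retrotransposition had a row. Of 18 genes that silence retroelements, 1 was listed. UHRF1, which recruits the maintenance DNA methyltransferase, was at 5.63, 6.99 and 3.09 in the controls and at 15.68, 15.42 and 15.58 in the knockdown, and rose (log2 fold change 1.46, limma adjusted p = 0.000185). For a gene without a row the level is unknown, so a missing row does not show a lack of change. Among markers of other cell types, none of 8 T and NK cell and 8 myeloid markers was listed. Of 6 fibroblast markers COL1A1 was listed (0.593 in the control mean, 0.217 in the knockdown), and of 6 epithelial markers CLDN4 (2.70 and 1.36). Their part in the results was not tested.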

How the data were processed

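RNA of 3 libraries of LP-1 cells with RNF5 knocked down and 3 with a non-target control was analysed. The authors deposited a normalized signal per library (scale not stated), its mean per group, a fold ratio of knockdown over control, its log2 value, and the raw and adjusted p-value of the authors' test, per the file headers. Bowtie 0.12.2 and the build hg19 are named, without a role, per the submitters' processing notes. The counting of reads shared between gene copies, the strandedness and the read length are not stated, and depth is unknown. The authors listed only genes they called changed, so no test here is independent of that choice.

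The fit used limma 3.58.1 in R 4.3.3 on log2(value + 1), with its prior variance allowed to follow the mean, for the 1290 genes with at least 1 in 3 or more libraries. P-values were adjusted by Benjamini-Hochberg over those genes, and calls were made under 0.05. The fit was tested on simulated data. Pseudogene-to-parent and pseudogene-to-host log2 ratios, with 1 added to each value and with nothing added, had exact 2-sided permutation tests.

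GENCODE 29 (GRCh38) gave classes, positions and sequences by gene identifier for 1721 of the 1877 listed genes and 36 of the 44 pseudogenes. Its coordinates belong to GRCh38 and not to hg19. Transcripts were aligned to protein-coding transcripts with BLAST 2.17.0. Windows of 50 and 100 bases were searched, exactly and on both strands, in all GENCODE 29 transcripts of other genes. Counts against a named parent alone used 50-base windows and its protein-coding transcripts only. Members and lists were chosen with earlier results of these data known. Members were named if a parent had a row, if they had the 12 largest rises or up to 12 falls among called members with a mean of at least 1, if they were among the 10 highest means, belonged to families of at least 3, or went against the deposited direction (none did). Others were named after their values were seen. The lists searched covered nonsense-mediated decay, the RNA exosome, silencing of retroelements, restriction of LINE-1, and markers of plasma, T and NK, myeloid, fibroblast and epithelial cells.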

Additional observations from a re-analysis of the deposited data

How the results depend on the processing

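The 19 pseudogenes of the naming rule that had a fold change kept their direction and call in each alternative in which they could be fitted, and the others were followed by counts alone. The count of pseudogenes called higher was 30, and without any filter on low values it was 32. The count called lower was 4, and without the filter it was 11, all 4 among them. With a minimum of 5 in 3 libraries only 20 pseudogenes could be tested, and 19 were called higher and 1 lower. Leaving out 1 library gave 23 to 30 higher and 3 to 5 lower. The drop to 23 came with 28 pseudogenes tested in place of 35, since those above 1 in the knockdown alone then missed the filter. Groups that did not overlap numbered 31 to 32 above and 9 to 12 below when 1 library was left out, a check chosen after seeing the data. With knockdown values divided by the median offset, calls were 28 higher and 5 lower, and the shift of the median log2 fold change of all genes was from 0.73 to 0.62. All 4 parent pairs stayed apart under both other pseudocounts, with none (a check chosen after seeing the data) and without any single library. Copy and parent of each pair were listed in opposite directions, so this was nearly fixed by the selection. With the replicate number as a block, 30 were higher and 4 lower, and over all genes 1272 were called in place of 1260. Same-numbered libraries correlated at -0.165, -0.0711 and -0.0823 in their deviations, and no library correlated best with its own number. The deviations were taken from the means of only 3 libraries per group, so this cannot decide whether the numbers pair the samples. No paired analysis of the parent pairs was run, since their count comes from no model. Depth is unknown, so no counting limit can be given for values near 0.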
